A study of Mus musculus with 4 samples.

Results

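The genes described here are 9 of the 32285 mouse genes counted in these libraries, found by their symbols: the surface markers Prom1, Epcam, Cd24a and Ncam1, and the keratins Krt7, Krt8, Krt18, Krt19 and Krt23. They are commonly used to mark bile duct cells and hepatic progenitor cells. Their RNA was measured by single-nucleus RNA sequencing, which counts transcripts as unique molecular identifiers (UMIs) in droplets that each carry a barcode. All mice were male and received DDC, which damages the biliary tree, in the diet during 4 weeks, starting when they were 10 to 11 weeks old. In 2 libraries the mice lacked Rbpj, the DNA-binding partner of Notch receptors, in hepatic progenitor cells (CKO). The other 2 libraries came from wild-type mice (WT) on the same diet. The promoter that drove Cre and the deleted exons are not named in the labels, and neither is the animal behind each library. The p-values below therefore measure the spread between libraries, which may be technical.

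Keratins are the intermediate filament proteins of epithelia, and each filament pairs a type II chain with a type I chain. Krt8 (type II) and Krt18 (type I) form the filaments of hepatocytes and are also made by bile duct cells, while Krt7 (type II) and Krt19 (type I) are added in bile duct cells. DDC feeding is a classic way to induce Krt8 and Krt18 aggregates in hepatocytes. In liver injury, small ducts spread from the portal tract in a ductular reaction, and cells of these ducts carry Prom1, Epcam, Cd24a and sometimes Ncam1 on their surface.

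The libraries held 12261329 to 45620141 UMIs in 5184 to 16000 barcodes. Of 43664 barcodes, 39017 were kept, and between 19 and 114 barcode sequences were shared by any pair of libraries, at most 1.14% of the smaller library. Cholangiocyte-like nuclei, named by Pkhd1, Thsd4, Pdgfd, Cftr and Glis3 with the 9 genes left out of the clustering, numbered 1416, 298, 497 and 32. Here and below, 4 values in a row stand for WT replicate 1, WT replicate 2, CKO replicate 1 and CKO replicate 2, and 3 values for the first 3 of these. CKO replicate 2 holds only 64719 UMIs in the class, against 644636 to 4423561 in the other libraries. All 5 naming genes were raised in both clusters of the class. Rbpj stood at 78.4, 68.3, 72.8 and 30.9 CPM (UMIs of a gene scaled to a common total of UMIs in the class of a library) in this class. The last value rests on 2 UMIs, and 3' tags can lie outside the deleted exons, so the deletion is not checked by them. The added sequence named eGFPcre had 54, 0, 5 and 4 UMIs, so it was also counted in a library labelled WT.

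Some members have neighbours that the counting may not separate, since no source used here states whether strand or introns were used. Coordinates are those of GENCODE vM21 on GRCm38. Prom1 (ENSMUSG00000029086) lies on chr5:43993620-44102032, minus strand, and the transcript Gm42716 overlaps it on the same strand, with 31, 3, 3 and 1 UMIs in cholangiocyte-like nuclei. Epcam (ENSMUSG00000045394) lies on chr17:87635979-87651129, plus strand. Cd24a (ENSMUSG00000047139) lies on chr10:43578284-43584265, plus strand. Ncam1 (ENSMUSG00000039542) spans chr9:49502136-49798925, minus strand, with the antisense gene Gm11149. Krt7 (ENSMUSG00000023039) on chr15:101411043-101430313, plus strand, overlaps the antisense gene Gm671, which had 159, 16, 34 and 3 UMIs. Reads of Krt7 and Gm671 cannot be told apart without strand. Krt8 (ENSMUSG00000049382) on chr15:101996698-102004482, minus strand, has 1 pseudogene of its name, and Krt18 (ENSMUSG00000023043) is its neighbour on chr15:102028180-102032027, plus strand. Krt19 (ENSMUSG00000020911) lies on chr11:100140810-100148665, minus strand. Krt23 (ENSMUSG00000006777) lies on chr11:99477974-99493137, minus strand.

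The stretches of 250 bases upstream of the start sites are shown for the progenitor marker with the lowest p in the genotype comparison (Prom1), for a keratin that lay below the unnamed barcodes in the 5 tested classes (Krt8), and for a surface marker and a keratin that stood above background in at least 3 libraries in cholangiocyte-like nuclei (Epcam, Krt7). They are taken from RefSeq, build GRCm38.p6, and written 5′ to 3′ on the strand of the gene. RefSeq start sites can differ from the GENCODE ones. The windows of Prom1 and Krt7 lie inside the GENCODE genes given above and that of Krt8 overlaps its gene, while that of Epcam lies outside. Capitals mark TGGGAA or its reverse complement TTCCCA, the core letters bound by Rbpj.
Prom1, chr5:44101737-44101986, minus strand: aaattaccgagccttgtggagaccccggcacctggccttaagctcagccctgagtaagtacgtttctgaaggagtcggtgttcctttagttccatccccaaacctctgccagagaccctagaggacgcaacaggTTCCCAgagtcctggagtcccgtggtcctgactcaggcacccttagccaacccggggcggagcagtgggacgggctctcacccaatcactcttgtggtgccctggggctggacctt
Epcam, chr17:87635729-87635978, plus strand: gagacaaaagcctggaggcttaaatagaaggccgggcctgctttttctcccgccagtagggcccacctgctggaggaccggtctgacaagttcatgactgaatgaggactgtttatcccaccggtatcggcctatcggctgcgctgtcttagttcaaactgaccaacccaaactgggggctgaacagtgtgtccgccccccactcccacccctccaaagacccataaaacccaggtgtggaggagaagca
Krt7, chr15:101412153-101412402, plus strand: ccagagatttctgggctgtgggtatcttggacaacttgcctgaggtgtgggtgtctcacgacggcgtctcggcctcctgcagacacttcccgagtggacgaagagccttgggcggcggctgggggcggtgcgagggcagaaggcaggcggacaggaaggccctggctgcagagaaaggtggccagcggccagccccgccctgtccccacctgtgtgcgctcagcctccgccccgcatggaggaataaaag
Krt8, chr15:102004343-102004592, minus strand: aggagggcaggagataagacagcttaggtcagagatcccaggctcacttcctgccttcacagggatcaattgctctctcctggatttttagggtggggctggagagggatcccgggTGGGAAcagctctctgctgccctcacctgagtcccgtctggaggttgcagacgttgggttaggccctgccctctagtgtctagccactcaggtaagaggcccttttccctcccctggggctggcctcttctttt
RefSeq windows were matched for Prom1 (2 start sites), Epcam, Krt7, Krt8, Krt18 and Krt23. The core letters were found on either strand in 2 of these 7 windows, 1 of Prom1 and that of Krt8, against 21.6% of 32851 windows of the same length. These matches describe letters only.

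Levels were first compared between classes, to see which nuclei carried each transcript. Barcodes that took no class name served as the background, 5481, 3815, 8726 and 2833 per library. This background is not neutral. Its sum of 10 hepatocyte markers was 30253, 27649, 44030 and 31663 CPM, against 18826, 17878, 22668 and 20798 CPM in hepatocyte-like nuclei. It also holds a cluster of 100 nuclei with mesothelial markers raised. Classes are clusters of the same counts, so the order of classes is a description with no test. UMIs depend on transcript length and on priming, so levels are compared within a gene and not between genes.

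Prom1, the pentaspan membrane protein prominin 1 of cell protrusions, had 118, 154, 40.1 and 46.4 CPM in cholangiocyte-like nuclei, so both CKO libraries lay below both WT libraries. These rest on 524, 99, 59 and 3 UMIs. Cholangiocyte-like nuclei had the highest Prom1 level of the 5 classes in 4 of 4 libraries, 5.82, 10.1, 2.33 and 34.5 times the level of unnamed barcodes. The means of the other classes over the 4 libraries lay between 9.76 (mesenchymal-like) and 11.9 CPM (endothelial-like), with SDs of 6.43 to 10.2 (n = 4), and were not told apart. In hepatocyte-like nuclei Prom1 had 10.5 and 10.9 CPM in the WT libraries, 25.3 CPM in CKO replicate 1 (127 UMIs) and 0.354 CPM in CKO replicate 2 (2 UMIs). The CKO libraries thus lay on opposite sides of both WT libraries. Cholangiocyte-like nuclei held 49.3%, 37.5%, 9.16% and 21.4% of the Prom1 UMIs in kept barcodes. Fewer such nuclei and less Prom1 per nucleus both enter these shares and cannot be told apart there.

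Epcam, the epithelial cell adhesion molecule, had 67.6, 74.5, 61.9 and 30.9 CPM (2 UMIs) in cholangiocyte-like nuclei, the lowest in CKO replicate 2. It was highest in this class in 4 of 4 libraries, 1.86 to 7.32 times the unnamed barcodes. Hepatocyte-like nuclei had the lowest mean Epcam level, with 9.64, 9.72, 5.17 and 0.884 CPM, below the unnamed barcodes in every library.

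Cd24a, a small glycosylated protein anchored by a lipid, had 53.6, 32.6, 42.8 and 15.5 CPM (1 UMI) in cholangiocyte-like nuclei, so the groups overlapped. These were the highest of the 5 classes in 4 of 4 libraries. Unnamed barcodes had 69.4, 34.4, 41.6 and 3.26 CPM, so in the 3 libraries with more than 1 UMI the class stood at 0.772, 0.946 and 1.03 times the background. A free RNA estimate described with Krt8 below leaves 75.3 of 237, 8.0 of 21 and 27.3 of 63 Cd24a UMIs in these 3 libraries, and at most 4.26 in endothelial-, macrophage- or mesenchymal-like nuclei of any library.

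Ncam1, the neural cell adhesion molecule of the immunoglobulin family, went with a different class. Mesenchymal-like nuclei had 122, 160.3, 46.1 and 45.9 CPM, the highest of the 5 classes in 4 of 4 libraries. Cholangiocyte-like nuclei came next in every library, with 45.2, 38.8, 29.2 and 15.5 CPM (1 UMI). Unnamed barcodes had 8.46, 3.84, 3.48 and 1.92 CPM, and the other 3 of the 5 tested classes had means of at most 4.28 CPM.

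**Figure D1:**
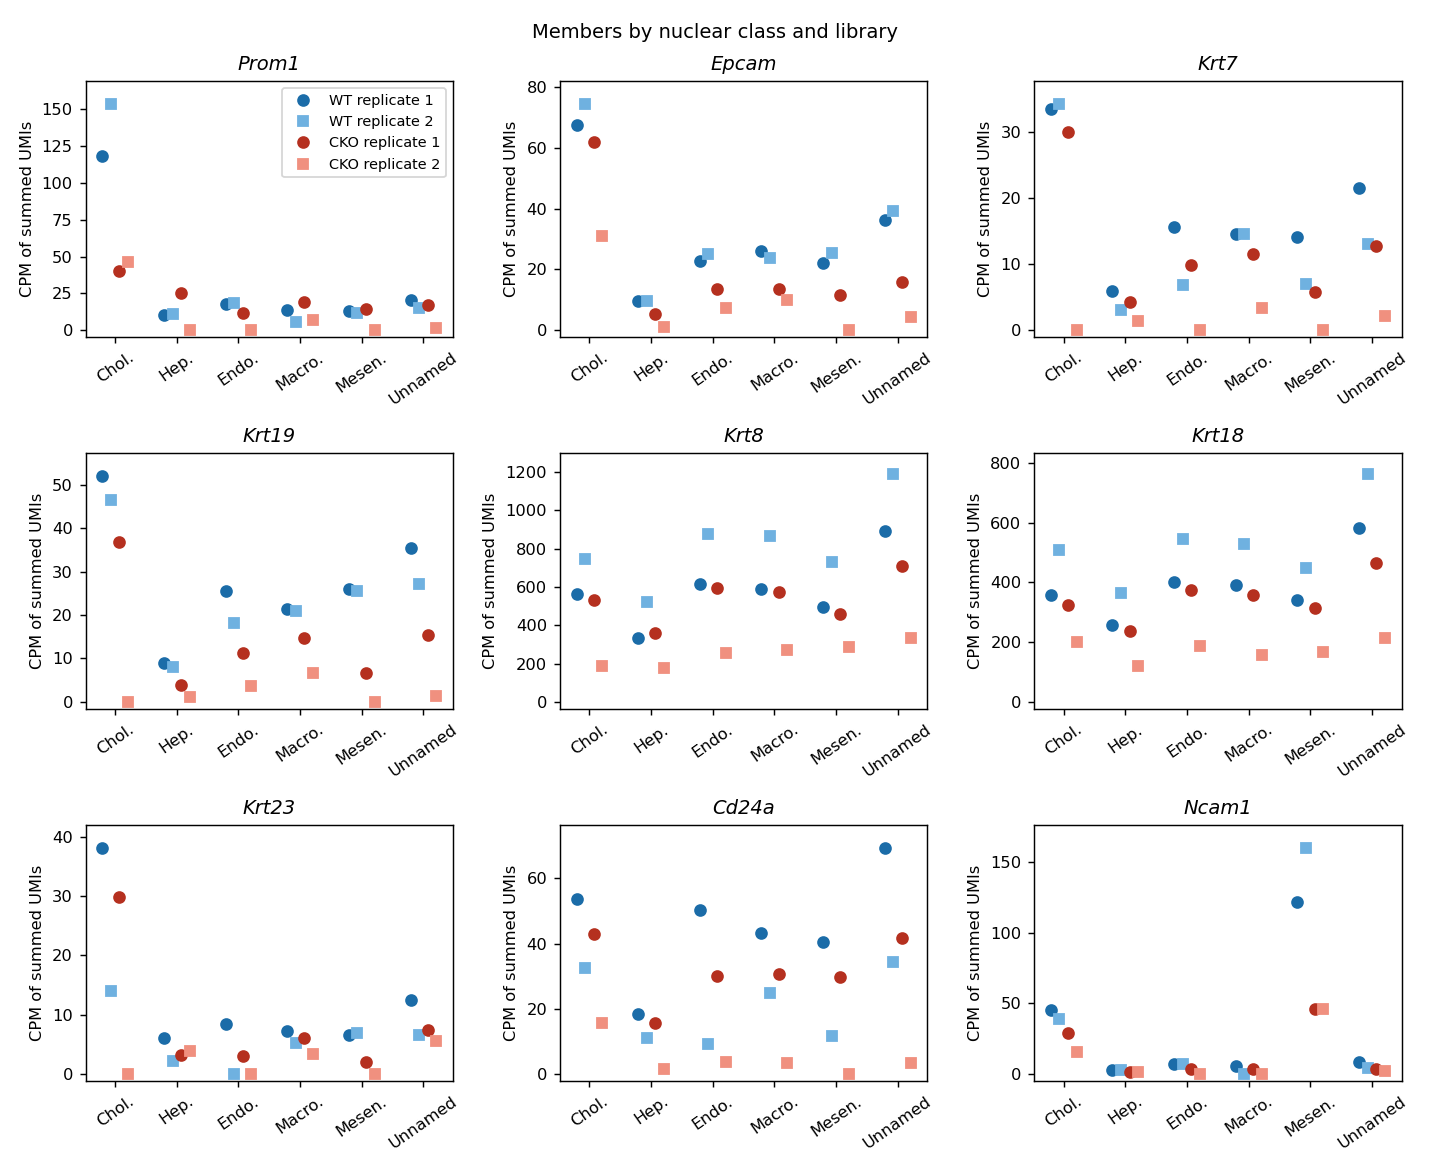
CPM of summed UMIs (vertical axis, linear) of each member by nuclear class (horizontal axis: cholangiocyte-, hepatocyte-, endothelial-, macrophage- and mesenchymal-like nuclei and unnamed barcodes), 1 point per library. Among the 5 named classes, Prom1, Epcam and Cd24a were highest in the cholangiocyte-like class in each library, and Ncam1 in the mesenchymal-like class. Cd24a was higher still in the unnamed barcodes of both WT libraries. Krt8 and Krt18 were below the unnamed barcodes in all 5 named classes.

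Among the keratins, Krt7, the type II chain of simple ducts, had 33.5 and 34.1 CPM in cholangiocyte-like nuclei of the WT libraries, 29.9 CPM in CKO replicate 1 and 0 UMIs in CKO replicate 2. At that depth 0 UMIs allow up to 46.4 CPM (3 counts), which is above the level in each other library, so an absence of Krt7 there was not detectable. The same holds for Krt23, while for Krt19 the limit lies above CKO replicate 1 and just below both WT libraries. Krt19, the smallest type I chain and the usual stain for bile ducts, had 52.0 and 46.5 CPM in WT and 36.7 CPM in CKO replicate 1. Krt23, a type I keratin that rises in stressed liver, had 38.2 and 14.0 CPM in WT and 29.9 CPM in CKO replicate 1, so the WT libraries lay on both sides of it. In these 3 libraries cholangiocyte-like nuclei were the highest class for Krt7, Krt19 and Krt23. Their levels were 1.56, 2.61 and 2.37 times the unnamed barcodes for Krt7, 1.46, 1.72 and 2.39 times for Krt19 and 3.08, 2.11 and 4.07 times for Krt23.

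Krt8 and Krt18 lay below the unnamed barcodes in all 5 tested classes and all 4 libraries. In cholangiocyte-like nuclei Krt8 had 563, 745, 529.8 and 185 CPM, and unnamed barcodes had 891, 1188, 712 and 336 CPM. Krt18 had 359, 507, 323 and 201 CPM against 583, 762, 466 and 214 CPM. WT replicate 2 was highest and CKO replicate 2 lowest in both populations. The class held 0.552 to 0.744 times the background for Krt8 and 0.616 to 0.941 times for Krt18, and hepatocyte-like nuclei held 0.375 to 0.527 and 0.442 to 0.557 times. Scaling the unnamed profile to secreted hepatocyte transcripts such as Alb and Ttr, a step added after the data were seen, put the free RNA at 52.7%, 58.6%, 58.4% and 73.6% of all UMIs of cholangiocyte-like nuclei. By that estimate it gives 2075 of the 2490 Krt8 UMIs in WT replicate 1 and 47.4 of the 524 Prom1 UMIs. It leaves 415, 31.3, 168 and 0 Krt8 UMIs and 231, 39.1, 75.5 and 2.83 Krt18 UMIs in cholangiocyte-like nuclei. In macrophage-like nuclei it leaves 0.0387 of 3825 Krt8 UMIs in WT replicate 1 and 147 of 2921 in CKO replicate 1. The estimate uses the same unnamed profile as the ratio, so a ratio below 1 still leaves UMIs where it exceeds the free RNA share. How much Krt8 and Krt18 RNA belongs to the class therefore depends on that share.

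**Figure D2:**
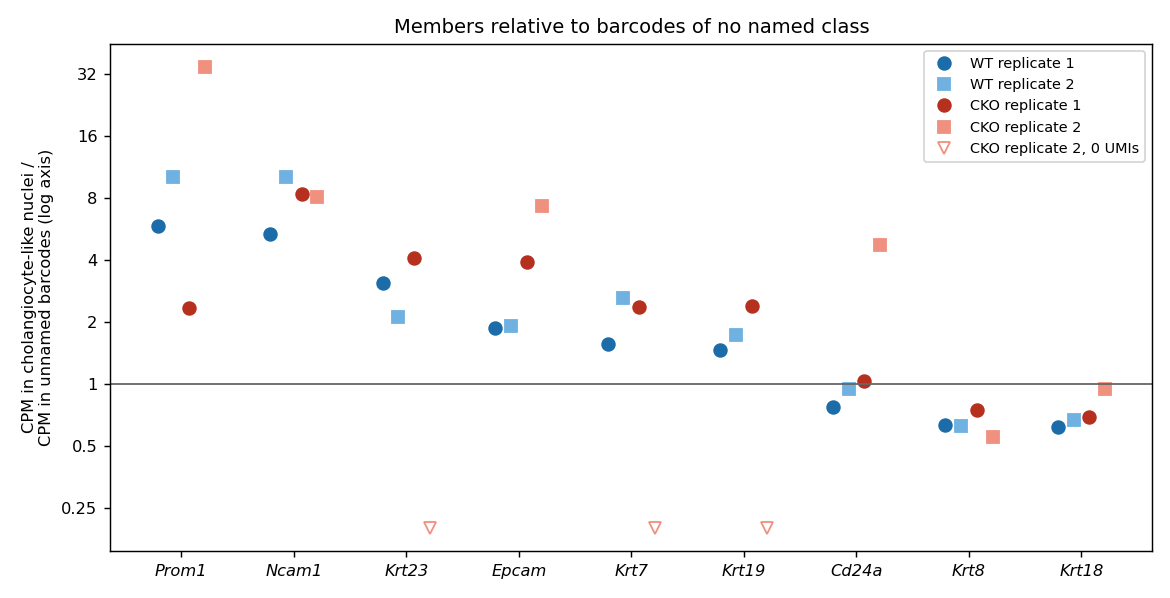
Level in cholangiocyte-like nuclei divided by the level in unnamed barcodes of the same library (vertical axis, log scale) for each member (horizontal axis), 1 point per library, with open triangles for 0 UMIs. Prom1, Ncam1 and Epcam lie above 1 in all 4 libraries, Krt8 and Krt18 below 1 in all 4, and the high points of CKO replicate 2 rest on 1 to 3 UMIs.

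The share of nuclei with at least 1 Prom1 UMI was also higher in the class than in macrophage-like nuclei. Of cholangiocyte-like nuclei, 27.2% had one in WT replicate 1 (95% Clopper-Pearson interval 24.9 to 29.6%) and 27.2% in WT replicate 2 (22.2 to 32.6%). The share was 10.7% in CKO replicate 1 (8.09 to 13.7%) and 9.38% in CKO replicate 2 (1.98 to 25.0%). Macrophage-like nuclei, which should lack Prom1, had a UMI in 3.34%, 0.973%, 4.19% and 1.25%. Median depths were 2888, 1968.5, 2665 and 1935 UMIs per nucleus in the cholangiocyte-like class and 2370.0, 1761, 2191 and 1783.5 in the macrophage-like class. With each nucleus thinned to 1000 UMIs, which left out 0 nuclei, the Prom1 shares were 11.3%, 13.4%, 3.62% and 6.25% in cholangiocyte-like and 1.54%, 0.730%, 1.62% and 1.25% in macrophage-like nuclei. For Krt8 the unthinned shares were 79.9%, 78.9%, 76.9% and 37.5%, against 75.8%, 79.6%, 74.3% and 40.6% in macrophage-like nuclei. Thinned, they were 43.3%, 55.7%, 37.6% and 15.6%, against 44.6%, 59.1%, 45.0% and 19.4%, below the macrophage-like nuclei in each library. Intervals cover counting error only.

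Detection in the same nucleus was counted for pairs of members. Krt8 was seen in 1761 and Krt18 in 1414 of 2243 cholangiocyte-like nuclei. They were seen together in 1128, where these single shares alone would give 1110. The other members had fewer UMIs. Of the 2243 nuclei, 522 had a Prom1 UMI, 373 Epcam, 276 Krt19, 189 Krt23, 184 Krt7 and 167 Ncam1. At least 1 of these 6 genes was seen in 1229 nuclei and more than 1 in 392. Prom1 and Epcam were seen together in 95 nuclei, and Epcam and Krt19 in 72, where single shares alone would give 86.8 and 45.9. For Prom1 and Krt7 it was 38 nuclei against 42.8. Nuclei of different depth and library are pooled in these counts, and the differences were not tested. Counts this sparse do not show which nuclei lacked a transcript.

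Cholangiocyte-like nuclei fell into clusters in which the surface markers Prom1 and Ncam1 took opposite places. Cluster 0 (1927 nuclei) was led by genes such as Prdm16, Sctr and Thsd4, and cluster 1 (316 nuclei) by Dab1, Kcnip4 and Glis3. Prom1 had 136, 176 and 47.1 CPM in cluster 0 and 31.4 and 17.4 CPM in cluster 1 of WT replicate 1 and CKO replicate 1, with 3 UMIs in that of WT replicate 2. Ncam1 had 19.2, 11.0 and 17.8 CPM in cluster 0 and 176, 189.8 and 66.8 CPM in cluster 1. Cluster 1 was thus low in Prom1 and high in Ncam1 in each of these 3 libraries, and its Ncam1 level reached that of mesenchymal-like nuclei. Krt19 had 59.9, 53.3 and 42.6 CPM in cluster 0 and 12.3, 9.99 and 17.4 CPM in cluster 1. Krt7 and Epcam were also lower in cluster 1 in each of the 3 libraries. Cluster 1 stood at 0.346, 0.369 and 1.14 times the unnamed barcodes for Krt19. For Krt7 it stood at 0.319, 1.53 and 0.459 times and for Epcam at 0.376, 1.27 and 1.10 times, so these members were not steadily above background in it. Krt23 was higher in cluster 1 in WT replicate 1 (68.3 against 32.2 CPM) and CKO replicate 1 (63.9 against 19.5 CPM), but not in WT replicate 2 (9.99 against 14.7 CPM, on 1 and 8 UMIs). Cluster 1 made up 12.8%, 11.7%, 19.7% and 6.25% (2 nuclei) of the class. Members were kept out of the clustering, but clusters come from other genes of the same nuclei, so these differences have no test.

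Clustering the class again on values centred per library gave 5 sub-clusters, and 301 of the 316 nuclei of cluster 1 went into a sub-cluster of 321 nuclei led by Pcdh11x. Ncam1 had 166, 216 and 66.8 CPM in it, above each other sub-cluster in these 3 libraries. Of the naming genes, Cftr (83.7, 30.8 and 55.7 CPM), Thsd4 and Pdgfd were lowest in this sub-cluster in each of the 3 libraries. Pkhd1 and Glis3 were not. A sub-cluster of 212 nuclei led by Nos2, Il18r1 and Cxcl2, genes of inflammatory responses, had the highest Epcam level, 136, 131 and 188 CPM. Its Prom1 level was 44.0, 87.5 and 20.9 CPM. A sub-cluster of 160 nuclei led by the cell division genes Top2a and Kif11 had 207, 188 and 75.0 CPM of Prom1, the highest in WT replicate 1 and CKO replicate 1. The remaining sub-clusters were led by Chst9 (874 nuclei), with 161, 188 and 39.1 CPM, and Kcne3 (676 nuclei), with 122, 188 and 54.6 CPM. These 3 sub-clusters had the same Prom1 level in WT replicate 2, and the order of the last pair differed between WT replicate 1 and CKO replicate 1. Prom1 was lower in CKO replicate 1 than in both WT libraries in each of the 5 sub-clusters. Epcam was not, and in the sub-clusters led by Kcne3 and Nos2 it was higher in CKO replicate 1 than in both WT libraries. The Prom1 values of CKO replicate 1 rest on 2, 7 and 6 UMIs in the sub-clusters led by Nos2, Top2a and Pcdh11x. The 5 sub-clusters split the same libraries, so they do not repeat the comparison. CKO replicate 2 held 0 to 17 nuclei per sub-cluster and is not read here.

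**Figure D3:**
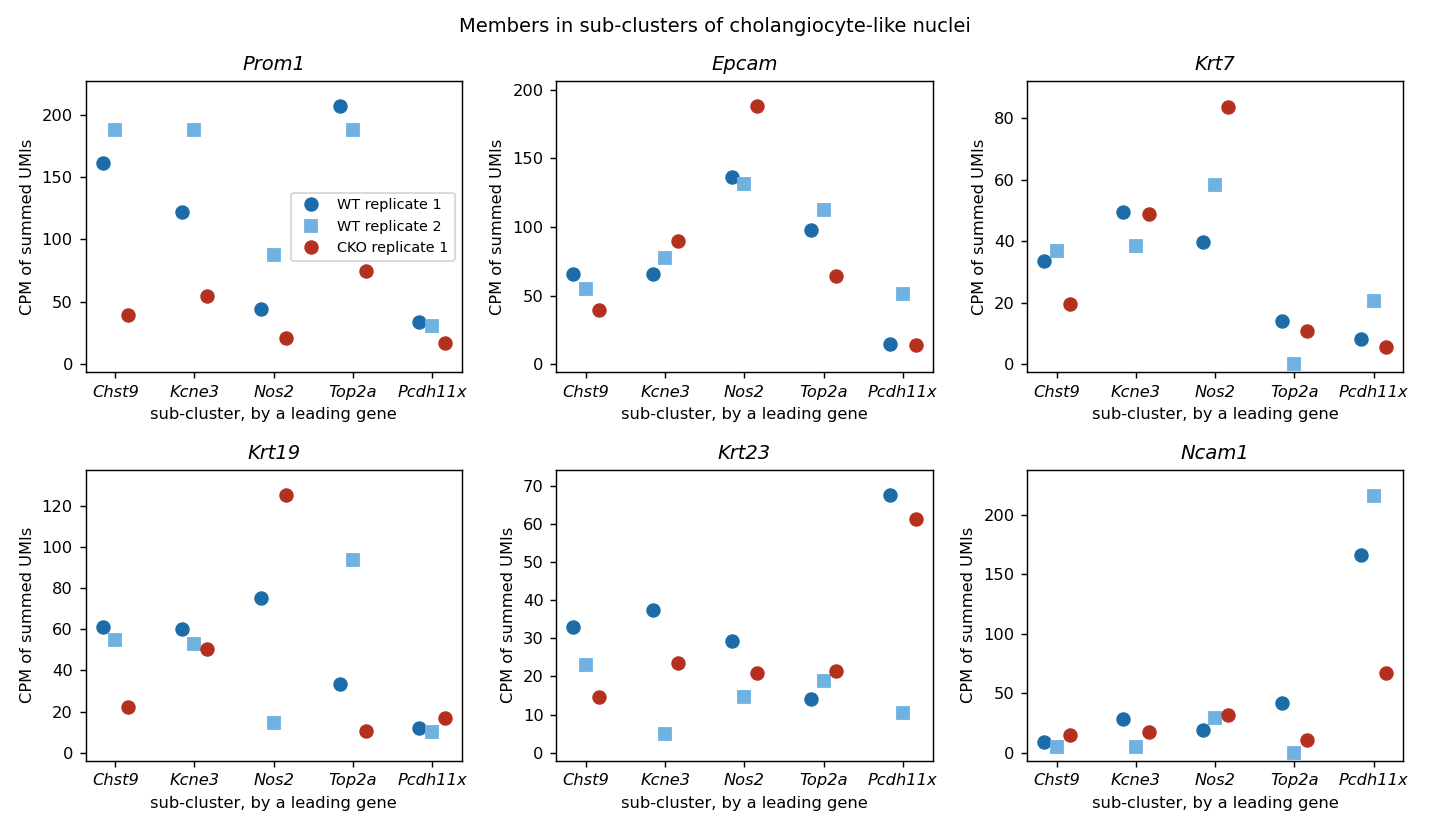
CPM of summed UMIs (vertical axis, linear) of 6 members in the 5 sub-clusters of cholangiocyte-like nuclei, each named on the horizontal axis by a leading gene, 1 point per library. CKO replicate 2 is not drawn because it holds at most 17 nuclei in a sub-cluster. Prom1 of CKO replicate 1 is the lowest point in all 5 sub-clusters, on 2 to 28 UMIs, and Ncam1 is high in the sub-cluster led by Pcdh11x.

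The genotype comparison asked how the members differed between CKO and WT livers within cholangiocyte-like nuclei. Prom1 had the largest log2 change of the 9, with 136 ± 24.8 CPM in WT and 43.2 ± 4.4 CPM in CKO libraries (SD, n = 2 each). The fitted changes of the other members were smaller than 1 on the log2 scale. All 9 were measured and all 9 log2 changes were negative, against 56.2% of the 10283 genes tested. In 7 of 9, every member but Cd24a and Krt23, both CKO libraries lay below both WT libraries, against 20.9% of all genes, and in 0 of 9 both lay above, against 9.26%. Of these 7, Krt7 and Krt19 lay below through 0 UMIs in CKO replicate 2, where their absence was not detectable or nearly so, and Epcam and Ncam1 rest on 2 and 1 UMIs there. That leaves Prom1, Krt8 and Krt18 with at least 3 UMIs in each library. The median log2 change of the 9 was -0.62, against -0.06 for all genes. The members were chosen with earlier results of these data known, among them the lower Prom1 value, so this is not independent evidence of a direction.

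By edgeR's quasi-likelihood test with adjustment over all genes, 0 of 10283 genes passed (0%), and 247 had an unadjusted p under 0.05 (2.4%). DESeq2 also called 0. Prom1 had a log2 change of -1.70 (SE 0.35, unadjusted p = 0.00297, adjusted p = 0.999 by edgeR), the ninth smallest p (rank 9) of all genes. It was the 1 member of 9 with an unadjusted p under 0.05 and a lower CKO level, against 1.36% of all genes. With 2 libraries a group, the smallest two-sided p of an exact permutation test is 0.333. Within the replicate numbers the Prom1 change was -1.54 and -1.71. Without CKO replicate 1 it was -1.49 (edgeR adjusted p = 0.0139), and without CKO replicate 2 it was -1.73 (adjusted p = 1.92e-08 by edgeR). These fits called 924 of 9145 and 295 of 11821 genes, against 0 with all 4 libraries, and 7.03% and 1.14% of genes were called lower in CKO. In both a lone CKO library is assumed to vary like the WT pair. The fit of all 4 libraries therefore makes no call, while those with either CKO library alone do. The CKO replicate 2 value of 46.4 CPM rests on 3 UMIs, with an exact Poisson interval of 9.56 to 135 CPM that reaches above the WT replicate 1 value. The interval in CKO replicate 1, 30.5 to 51.8 CPM, lies under those of the WT libraries, 109 to 129 and 125 to 187 CPM.

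The sum of the 10 hepatocyte markers, all of them found, was 15990, 16502, 25664 and 22884 CPM in cholangiocyte-like nuclei. Both CKO libraries lay above both WT libraries in it. The sum of the 5 cholangiocyte markers was 7286, 6388, 5925 and 6011 CPM. Their part in the Prom1 difference was not tested. With the free RNA subtracted per library the Prom1 change was -1.84 (edgeR adjusted p = 0.331), and in cluster 0 alone, another alternative chosen after seeing the data, it was -1.70.

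Of the other surface markers, Ncam1 had a log2 change of -0.62 (SE 0.35), Epcam of -0.37 (SE 0.36) and Cd24a of -0.19 (SE 0.41). In cluster 0 alone Ncam1 had 0.20. In cluster 1 the WT libraries had 176 and 189.8 CPM (129 and 19 UMIs) and CKO replicate 1 had 66.8 CPM (23 UMIs). Of the keratins, Krt8 had a log2 change of -0.78 (SE 0.50), Krt19 of -0.69 (SE 0.58), Krt18 of -0.67 (SE 0.37), Krt7 of -0.40 (SE 0.59) and Krt23 of -0.09 (SE 0.67). The lowest unadjusted p of these 8 members was 0.123, for Ncam1, in edgeR's test. Within replicate 1 the changes were -0.09 for Krt8, -0.15 for Krt18, -0.16 for Krt7 and -0.49 for Krt19, and within replicate 2 they were -2.0, -1.33, -5.13 and -5.57, the last pair with 0 UMIs in CKO. The keratin differences thus rest mainly on the library with 32 nuclei. Without CKO replicate 1 edgeR called Krt8 (adjusted p = 2.16e-05), Krt18 (0.0115), Krt19 (0.00656) and Krt7 (0.0483), beside the 7.03% of all genes called lower in that fit, and without CKO replicate 2 it called none of the 5 keratins. With the free RNA subtracted the changes of Krt8 and Krt18 were 0.52 and 0.03.

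**Figure D4:**
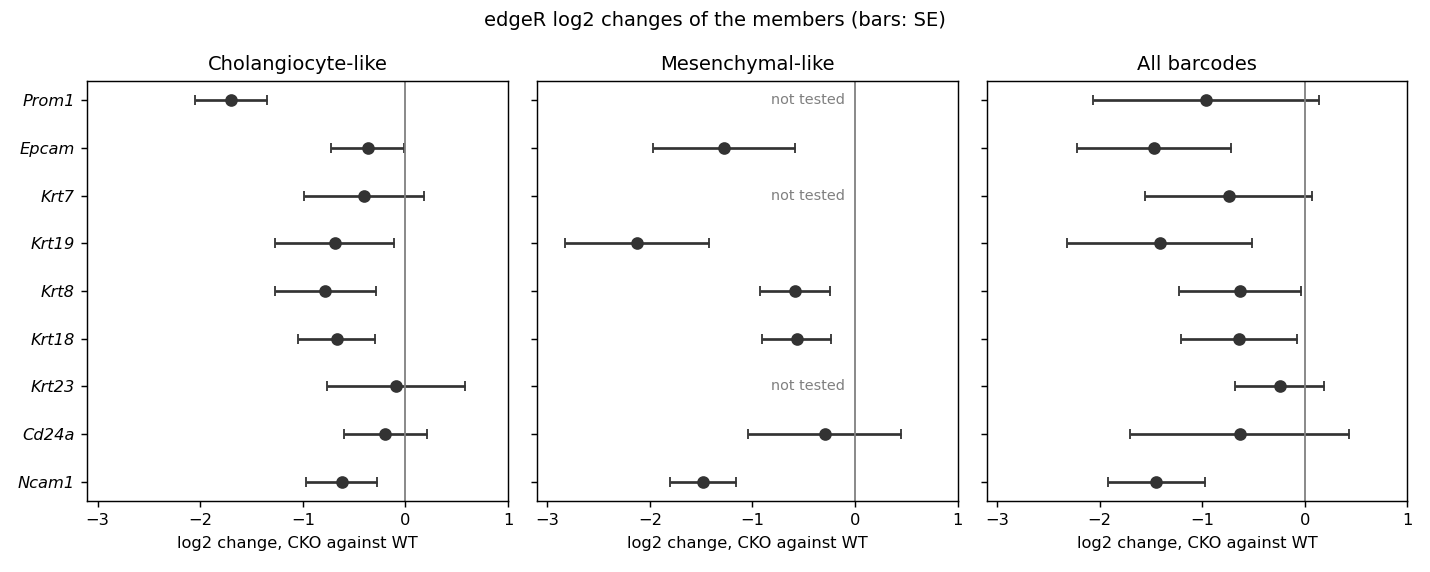
Log2 change in CKO against WT libraries (horizontal axis) of each member, in cholangiocyte-like nuclei, mesenchymal-like nuclei and all barcodes. Bars are the SE derived from edgeR's F statistic. Prom1 in cholangiocyte-like nuclei and Ncam1 in mesenchymal-like nuclei lie farthest from 0 relative to their bars, and none passed after adjustment over all genes.

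In mesenchymal-like nuclei 6 of the 9 members passed the filter on low counts, leaving out Prom1, Krt7 and Krt23. Ncam1 had 141 ± 27.0 CPM in WT and 46.0 ± 0.123 CPM in CKO libraries (SD, n = 2 each), and both CKO libraries lay below both WT libraries, as for 27.3% of the 8655 genes tested. This held for 5 of the 6 members. Among these, Epcam and Krt19 had 0 UMIs in CKO replicate 2, where 0 UMIs allow up to 17.2 CPM. The log2 change of Ncam1 was -1.48 (SE 0.32, unadjusted p = 0.00172, adjusted p = 0.575 by edgeR), and 2.76% of all genes were lower at an unadjusted p under 0.05. The UMIs behind it were 244, 69, 48 and 8. Within the replicate numbers the change was -1.39 and -1.78. edgeR called Ncam1 with no filter on low counts (adjusted p = 0.0128), without CKO replicate 1 (0.00901) and without CKO replicate 2 (0.000205). These fits called 0.307%, 3.76% and 1.16% of all genes lower in CKO. Krt19 had a log2 change of -2.12 (SE 0.70, unadjusted p = 0.0138, adjusted p = 0.762 by edgeR) on 52, 11, 7 and 0 UMIs, at most 0.945 times the unnamed barcodes in every library. Both CKO libraries lay above both WT libraries for 0 of the 6 members, against 9.62% of genes. edgeR called 0 genes, 507 (5.86%) having an unadjusted p under 0.05, DESeq2 called 1, and without a filter on low counts edgeR called 135. Of the 5 cholangiocyte markers in mesenchymal-like nuclei, 4 had negative changes, 3 of them at an unadjusted p under 0.05, and Glis3 had 0.79, with a median log2 change of -1.22. Their part in the Ncam1 and Krt19 values was not tested. The same 5 markers were all negative in hepatocyte-, endothelial- and macrophage-like nuclei and over all barcodes, with medians of -0.91, -0.76, -0.58 and -1.18.

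A cluster of 100 nuclei that took no name had all 6 listed mesothelial markers raised, and its keratin counts were small. Krt23 had 0 UMIs in all 4 libraries. Its Krt7 level was 68.5 and 56.1 CPM in the WT libraries (9 and 2 UMIs) and 28.9 CPM in CKO replicate 1 (1 UMI), with 0 UMIs in CKO replicate 2. Its Krt19 level was 60.9 CPM in WT replicate 1 (8 UMIs) and 86.7 CPM in CKO replicate 1 (3 UMIs), with 0 UMIs in each other library. The 12 to 49 nuclei per library allow no comparison of genotypes.

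The hepatocyte-like clusters split by library. WT replicate 1 gave 1800 of 1895 nuclei of a cluster, and WT replicate 2 gave 1057 of 1097 of another. CKO replicate 1 gave 924 of 925 and CKO replicate 2 gave 1636 of 1642 nuclei of the others. Each had 4 or 5 of 10 hepatocyte markers raised and 0 among its 10 most raised genes. The part of the library in the values below was not tested. In hepatocyte-like nuclei all 9 members passed the filter, and 8 of 9 log2 changes were negative, against 48.3% of 13363 genes. In 4 of 9 (Epcam, Krt18, Krt19 and Ncam1) both CKO libraries lay below both WT libraries, against 17% of all genes, and in 0 both lay above, against 7.69%. Krt19 had 8.90, 8.10, 3.98 and 1.24 CPM, a log2 change of -1.66 (SE 0.56, unadjusted p = 0.0349, adjusted p = 0.999 by edgeR), and 0.98% of all genes were lower at an unadjusted p under 0.05. Unnamed barcodes had 35.5, 27.0, 15.3 and 1.34 CPM of Krt19, above the hepatocyte-like nuclei in each library. Prom1 had a log2 change of 0.26 (SE 1.38). edgeR called 0 of these genes, 246 (1.84%) having an unadjusted p under 0.05, and DESeq2 called 2.

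Clusters also split by library in the endothelial- and macrophage-like classes. CKO replicate 1 gave 835 of 913 nuclei of an endothelial-like cluster and 2198 of 2213 of a macrophage-like one. WT replicate 1 gave 1216 of 1601 and 2562 of 2640 nuclei of others. The part of the library in these values was not tested. In endothelial-like nuclei 7 members passed the filter and all 7 had negative log2 changes, against 49.3% of 10095 genes. Both CKO libraries lay below both WT libraries in 5, against 27.8%, and above in 0, against 6.63%. In CKO replicate 2 Prom1 and Krt7 had 0 UMIs in this class, Krt19 and Cd24a 1 each and Epcam 2. In WT replicate 1 the free RNA estimate leaves 11.1 of 57 Prom1, 0 of 73 Epcam and 1.66 of 50 Krt7 UMIs. It leaves 1.84 of 82 Krt19, 4.26 of 161 Cd24a, 0 of 1976 Krt8 and 0 of 1284 Krt18 UMIs there. In macrophage-like nuclei 8 passed, and 7 were negative, against 50% of 12149 genes. Both CKO libraries lay below both WT libraries in 5 of the 8, against 25.7%, and above in 0, against 6.4%. Prom1 was the exception to the negative changes there, with a log2 change of 0.74 (SE 0.50). Of the 8, those other than Krt8 and Krt18 had 1 to 3 UMIs in CKO replicate 2. Krt8 had -0.68 (SE 0.41) in endothelial-like and -0.66 (SE 0.41) in macrophage-like nuclei, close to its -0.78 in cholangiocyte-like and -0.64 (SE 0.43) in hepatocyte-like nuclei. Differences between these classes were not tested. No member had an unadjusted p under 0.05 in either class. edgeR called 0 genes in both, 444 (4.4%) of the endothelial-like and 499 (4.11%) of the macrophage-like fit having an unadjusted p under 0.05, lower in CKO for 1.79% in each, and DESeq2 called 1 in each.

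Over all barcodes of a library, with no clustering, the 9 members had negative log2 changes, against 44.8% of 17077 genes. Both CKO libraries lay below both WT libraries in 5 of 9, against 19.8%, and above in 0, against 3.37%. Ncam1 had 15.3, 9.92, 5.34 and 2.20 CPM, a log2 change of -1.45 (SE 0.47, unadjusted p = 0.0299, adjusted p = 0.9999 by edgeR), and 1.02% of all genes were lower at an unadjusted p under 0.05. Epcam had 29.3, 29.6, 15.6 and 2.85 CPM (log2 change -1.47, SE 0.75). edgeR called 0 genes, 285 (1.67%) having an unadjusted p under 0.05, and DESeq2 called 1.

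Genes of related function were read beside the members in cholangiocyte-like nuclei, from fixed lists. No list had a gene that passed or an unadjusted p under 0.05 in edgeR's test. None of the 44 other keratin genes had enough UMIs to be tested. Of 22 biliary and progenitor surface or secreted genes, 14 were tested and 13 were negative (median log2 change -0.28), among them Itgb4, the integrin chain of hemidesmosomes to which keratins are tied (-0.81, SE 0.35), and Sctr, the secretin receptor of bile ducts (-0.65, SE 0.33). Sctr had 158, 189, 95.2 and 139 CPM. Mmp7, a matrix protease of injured ducts, had -0.48 (SE 0.42) and Spp1, osteopontin, -0.29 (SE 0.29). Of 14 biliary transcription factors 9 were negative (median -0.20). Ehf had -0.39 (SE 0.29) and Glis2 -0.50 (SE 0.31), while Elf3, an epithelial ETS factor, had 1.14 (SE 0.54) on levels of 5.65 to 15.5 CPM.

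Cell contacts had medians near 0. Of 16 junction genes 10 were negative (median -0.01), and Cldn4, a tight junction claudin, had 1.46 (SE 0.67) but 0 UMIs in CKO replicate 2. Of 11 tested genes that anchor keratins 6 were negative (median -0.00047), with Ppl, periplakin, at -0.70 (SE 0.34) and Dsp, desmoplakin, at 0.38 (SE 0.30). The 5 cholangiocyte markers had a median of -0.12, with Pkhd1, the ciliary protein fibrocystin, at -0.26 (SE 0.31). Of 11 tested cell cycle genes 9 were negative (median -0.51), with Knl1, a kinetochore scaffold, at -1.18 (SE 0.61) and 0 UMIs in CKO replicate 2.

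The likeness of patterns was measured as Pearson's r of log2(CPM + 1) over 20 profiles, 5 classes in 4 libraries. These points share libraries, depth and free RNA, so r is a description. Prom1 was most like Ehf, an epithelial ETS factor (r = 0.92), Elovl7 (0.92) and Scara3 (0.92). Epcam was most like Slc25a24 (0.93), Krt7 like Bcam (0.95) and Spint1 (0.94), and Krt19 like Tuba1a (0.93). Krt23 was most like Tspan33 (0.91) and Cd24a like Agps (0.90). Krt8 was most like Gstm1 (0.95), Gsta4 and Lcn2, and Krt18 like Cstb (0.94) and Gstm1 (0.93). Ncam1 was most like Kirrel (0.97), Plod2 (0.97) and Afap1 (0.96). Among the members, Krt8 and Krt18 were most alike (0.96), then Krt7 and Krt19 (0.93), and Ncam1 had r between 0.25 and 0.39 with the other 8.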

How the data were processed

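Nuclei from fresh-frozen, briefly fixed liver were sequenced with a 3' droplet kit, per the labels' protocols. The authors deposited raw UMI counts per gene and barcode, made with Cell Ranger 5.0.1 on mm10 per the submitters' processing notes. Strand and intron settings are not given in the sources used here. Barcodes with at least 500 genes were kept, and the 0.8% per 1000 barcodes with the highest Scrublet scores were removed. Counts were clustered with scanpy 1.11.5 (1997 variable genes, no member among them, 30 components, Leiden resolution 1). A cluster was named where at least 3 markers of a type stood 1.5 times above the free RNA of the lowest 10% of barcodes by UMIs. The name was withheld where another type had more markers among the 10 most raised genes. It was also withheld where depth was low and no own marker was among these 10. The cluster with 6 mesothelial markers raised had 0 of them there and 1 marker of another type, so it stayed unnamed. UMIs were summed per library and class, and classes with at least 20 nuclei in each library were tested, which left T and NK, B and dendritic cells untested. The 7 added sequences were left out of the tests.

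CKO was compared with WT (2 libraries each) in R 4.3.3 with edgeR 4.0.16 (quasi-likelihood, TMM, filterByExpr, two-sided, Benjamini-Hochberg over all genes, adjusted p under 0.05). The SE given with an edgeR log2 change is its absolute value divided by the root of the F statistic, since the test itself gives none. The scripts were tested on simulated data. Alternatives were DESeq2 1.42.0, RLE size factors, no filter, a replicate block, each library left out, other definitions of the class and thinned counts, and, chosen after seeing the data, cluster 0 only and free RNA subtracted. The named genes are the members, the 4 genes of each list with the smallest p, and the 3 genes most like each member, from which examples are given. A result that falls under this rule is not reported here. The members and lists were chosen with earlier results of these data known. Depth was 12261329 to 45620141 UMIs per library. The replicate numbers were not used as pairs, since no label says that a number marks a shared animal or day. Deviations from the group means of same-numbered libraries had r = 0.0842 over 10283 genes in cholangiocyte-like nuclei. With 32 such nuclei in CKO replicate 2, this value cannot show whether same-numbered libraries share a batch. Replicate 1 held 16000 barcodes in both groups, and replicate 2 held 6480 in WT and 5184 in CKO. A batch by replicate number was not tested.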

Additional observations from a re-analysis of the deposited data

Results flagged for a closer look

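The added sequence Neo-PIGCN21AN, which is outside the main measurement, was counted at 2.63 CPM of the whole library in CKO replicate 1 and 1.63 in CKO replicate 2. Both lay above WT replicates 1 and 2, with 0.789 and 0.0719 CPM. The difference was not tested.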

How the results depend on the processing

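edgeR called 0 genes in each main comparison, which used all 4 libraries and the filter on low counts. The replicate block, which the labels do not support as a pairing, also gave 0 in all 6. Leaving out 1 library at a time gave 0 to 924 calls in cholangiocyte-like, 0 to 77 in hepatocyte-like, 0 to 224 in endothelial-like, 0 to 238 in macrophage-like and 0 to 546 in mesenchymal-like nuclei. The highest counts came without CKO replicate 1. Without CKO replicate 2 the counts were 295, 1, 79, 7 and 265. DESeq2 called 2 genes in hepatocyte-like nuclei and 1 each in endothelial-, macrophage- and mesenchymal-like nuclei and over all barcodes. No filter on low counts gave 11, 17 and 135 in endothelial-, macrophage- and mesenchymal-like nuclei. The cause of these moves was not tested.

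Some log2 changes took the other sign. Leaving out 1 library at a time, Krt23 and Cd24a ranged from -8.66 to 0.64 and from -1.43 to 0.029 in cholangiocyte-like nuclei. In hepatocyte-like nuclei Prom1 ranged from -4.68 to 1.24, Krt23 from -0.58 to 0.77 and Cd24a from -3.20 to 0.090. Cd24a ranged from -2.77 to 1.09 in endothelial-like and from -7.69 to 0.73 in mesenchymal-like nuclei. In macrophage-like nuclei Prom1 ranged from -0.37 to 1.46 and Krt23 from -0.067 to 0.069. Over all barcodes the ranges were -2.62 to 0.017 for Krt7, -1.30 to 0.014 for Krt8, -0.56 to 0.15 for Krt23 and -3.45 to 0.25 for Cd24a. The values of -8.66 and -7.69 have 0 UMIs in the CKO library and depend on the prior count. With the replicate block Prom1 in hepatocyte-like nuclei was -0.79. In cholangiocyte-like nuclei Ncam1 was 0.20 in cluster 0 only, and with free RNA subtracted Epcam was 0.19, Krt7 0.029, Krt8 0.52, Krt18 0.030, Krt23 0.031 and Cd24a 0.35. Prom1 in cholangiocyte-like nuclei and Ncam1 in mesenchymal-like nuclei were negative under every alternative run for their class. Other class definitions, thinned counts, cluster 0 only and free RNA subtraction were run for cholangiocyte-like nuclei only. A minimum of 1000 UMIs per barcode left the same 1416, 298, 497 and 32 nuclei, so it could not move these values. The 32 cholangiocyte-like nuclei of CKO replicate 2 limit what can be said of Krt7, Krt19 and Krt23.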
